A study of Mus musculus with 20 samples.

Results

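The cytosolic ribosomal protein genes of the mouse ovary were taken as the protein-coding genes whose GENCODE symbol is Rpl or Rps followed by a digit, leaving out the Rps6k kinases. Of 88 such genes in the annotation, 77 had values in the table of 17651 genes, 46 with the large subunit prefix Rpl and 31 with the small subunit prefix Rps. The other 11 genes (Rpl12, Rpl27a, Rps25, Rps27rt, Rpl26, Rpl9-ps1, Rpl36al, Rpl3l, Rps10, Rpl36-ps4 and Rpl17) were not analysed here. Rpl10-ps3, Rpl9-ps6, Rps12-ps3 and Rpl36a-ps1 are annotated as protein-coding under pseudogene symbols, and their values are uncertain because reads can be divided between them and their near-identical source genes. Rps19bp1 meets the symbol rule, but encodes AROS, a protein that binds RPS19 and the deacetylase SIRT1 and is not itself part of the ribosome.

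Whole ovaries of WT mice gave 20 RNA-seq libraries in 5 groups of 4. The groups were young mice (7 to 8 weeks), adult mice with HEP14 (27 to 28 weeks), adult mice (27 to 28 weeks), aged mice given HEP14 (73 to 74 weeks) and aged mice given vehicle (73 to 74 weeks, called aged below). HEP14 is a small molecule known as an activator of protein kinase C that promotes the formation of lysosomes. The adult HEP14 group is named only in the sample titles, its dose, route and duration are not stated in the sources read, and the labels do not say that each library came from a separate animal, so the p-values measure the spread between these libraries. The deposited values are scores in which each gene has a mean of 0 and an SD of 1 over the 20 libraries, so that a difference between groups is in SDs of that gene and is not a fold change. They hold no level that can be compared between genes, so the labelled tissue could not be checked by the level of its markers, although the 20 oocyte markers chosen were all in the table.

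The cytosolic ribosome translates messenger RNA into protein and is built from ribosomal RNA and a set of ribosomal proteins, in a small subunit that reads the message and a large subunit that forms the peptide bond. Many ribosomal protein mRNAs begin with a C followed by a run of pyrimidines, the TOP motif, through which the kinase complex mTORC1 and the protein LARP1 control their translation and stability. In the ovary, growing oocytes store ribosomes and mRNA for the embryo, and the surrounding somatic cells make protein for steroid and matrix production.

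The start sites of the members the results turn on are given as windows of 15 bases before and 15 bases from the first transcribed base, which is therefore the 16th letter, read from RefSeq promoters (GRCm38.p6) on the strand of the gene. Capitals mark the run of C and T over that base.
Rps6 (chr4:86857353-86857382, minus strand): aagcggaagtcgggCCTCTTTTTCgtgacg
Rps9 (chr7:3704026-3704055, plus strand): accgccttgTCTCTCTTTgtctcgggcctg
Rpl15 (chr14:18270972-18271001, minus strand): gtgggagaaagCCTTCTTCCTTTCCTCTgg
Rps27 (chr3:90213634-90213663, minus strand): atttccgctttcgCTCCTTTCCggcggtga
Rpl14 (chr9:120571502-120571531, plus strand): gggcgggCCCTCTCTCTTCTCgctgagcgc
Rpl28 (chr7:4792950-4792979, plus strand): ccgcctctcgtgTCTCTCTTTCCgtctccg
Rps18 (chr17:33955651-33955680, minus strand): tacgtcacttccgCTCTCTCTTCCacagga
Rpl35 (chr2:39005117-39005146, minus strand): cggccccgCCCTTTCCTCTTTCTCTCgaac
These windows are shown because genes with such a run went in different directions. Rps6, Rps9, Rpl15 and Rps27 were lower in aged than in young ovaries, Rpl14 and Rpl28 were higher, and Rps18 and Rpl35 did not pass in that comparison. The call of Rps27 was lost with library medians set equal (adjusted p = 0.0873), with a variance of its own for each group (0.139) and without aged library 4 (0.0595).

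The start of the mRNA was annotated for 55 of the 77 members in these promoters. A run of at least 8 letters C or T over the first base was found in 12 members (21.8%), against 3.8% of all 27025 promoters, and such a run within 20 bases of the first base in 24 members (43.6%), against 15.9% of all promoters. The core of ETS factor sites, CCGGAA, searched on both strands of each promoter of the table, was found in 26 members (47.3%), against 15.2% of all promoters. Its other strand, TTCCGG, can overlap a C and T run that ends in TTCC, and each match is a description of letters and not a binding site.

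Facts of the libraries that touch the results come first. In the 4 aged libraries the median score over all genes was between -0.62 and -0.28, and in the other 16 libraries between -0.16 and 0.02. The number of genes at a tied lowest value ran between 1956 and 3697 in aged libraries, against 686 and 1218 elsewhere. The mean of the 13 genes of the mitochondrial genome lay between 1.34 and 2.15 in aged libraries, against -0.78 and 0.09 elsewhere. These quantities move with every difference that involves the aged group below, and their part in it was not tested.

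**Figure D1:**
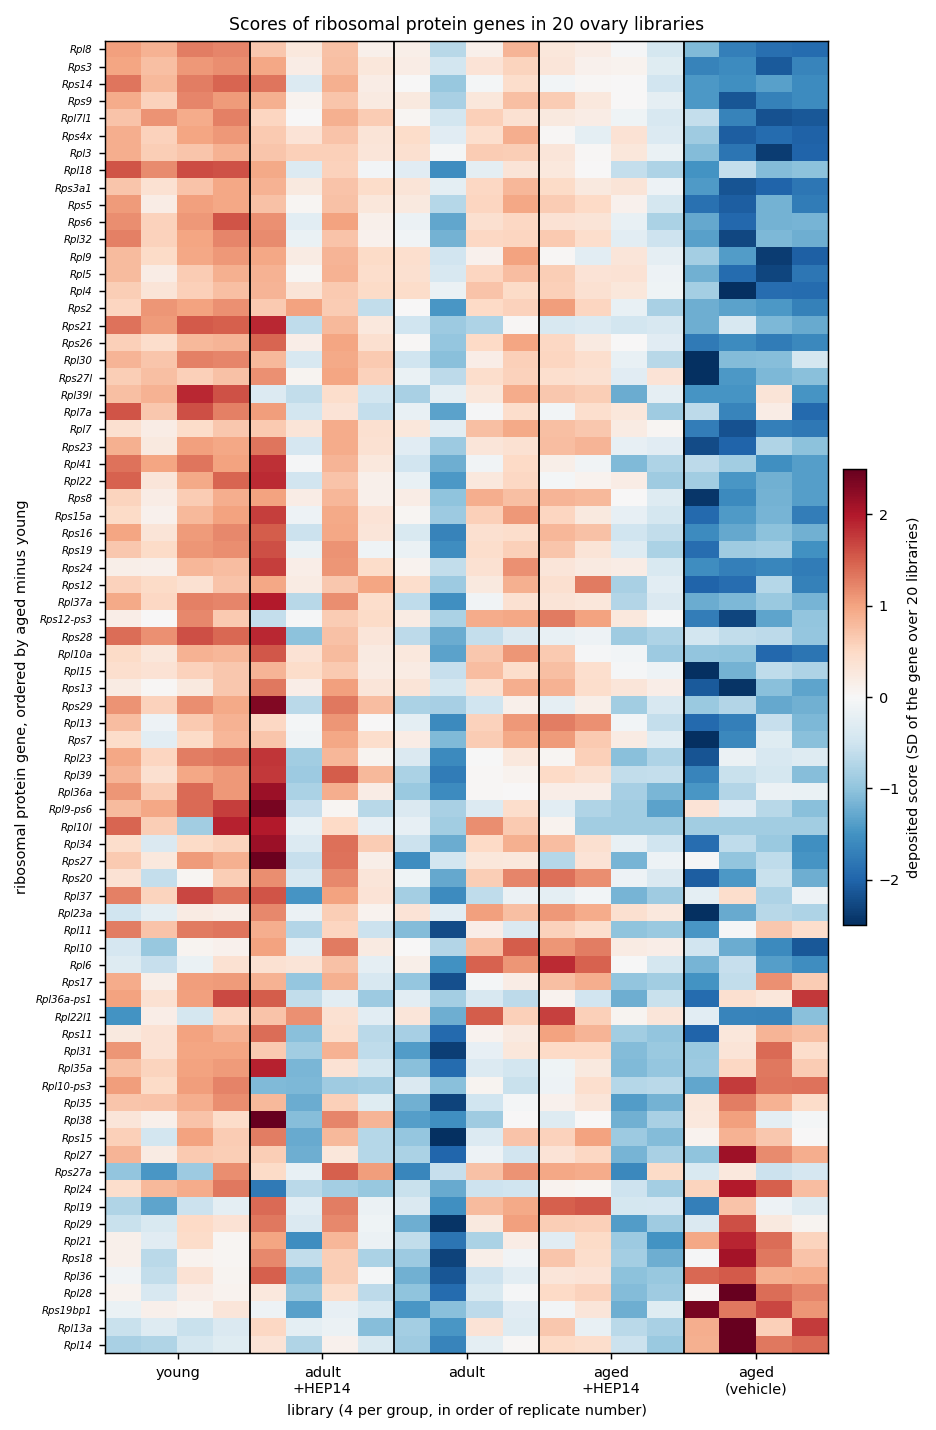
Scores of ribosomal protein genes (rows, ordered by the difference of aged minus young, lowest at the top) in 20 ovary libraries (columns, 4 per group, vertical lines between groups), with colour giving the score in SDs of the gene from blue (low) to red (high). Most rows are blue in the 4 aged libraries, and a block of rows at the bottom, ending in Rpl13a and Rpl14, is red there.

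In aged ovaries most ribosomal protein genes of both subunits were lower than in young ovaries, and a few large subunit genes were higher. By limma with Benjamini-Hochberg adjustment over all genes, 53 of the 77 were lower (68.8%), against 41.3% of all genes, and 5 were higher (6.49%), against 33.0% of all genes, of which 74.3% passed in either direction. The median difference of the 77 was -1.99 SD, beside -0.41 SD over all genes. In 52 members the 4 aged libraries lay wholly below the 4 young ones and in 5 wholly above, against 35.4% and 24.7% of all genes. The small subunit genes were lower in 25 of 31, with Rps19bp1 the 1 that was higher, and the large subunit genes were lower in 28 of 46 and higher in 4.

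Among proteins of the small subunit, Rps3, which sits where the mRNA enters, scored -1.67, -1.57, -2.10 and -1.66 in the aged ovaries and 0.98, 0.76, 1.08 and 1.17 in the young ovaries. The groups did not overlap, and the difference of -2.75 ± 0.29 SD (SE) passed with an adjusted p of 2.08e-07. Rps14, whose loss from a single gene copy causes an anaemia in a human deletion syndrome, was between -1.57 and -1.36 in all 4 aged ovaries, against 1.34, 0.82, 1.28 and 1.46 in the young ovaries. Its difference was -2.70 SD, and those of Rps9 and the X-linked Rps4x were -2.66 and -2.62 SD. Rps6, the protein that the S6 kinases phosphorylate, scored -1.28, -1.96, -1.19 and -1.17 in the aged ovaries and 1.16, 0.57, 1.08 and 1.58 in the young ovaries, again without overlap and with a difference of -2.5 SD. Rps19, the gene most often mutated in human Diamond-Blackfan anaemia, differed by -2.15 SD.

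Among proteins of the large subunit, Rpl8, which lies near the peptidyl transferase centre, scored -1.11, -1.71, -1.88 and -1.93 in the aged ovaries and 1.03, 0.86, 1.28 and 1.22 in the young ovaries. The difference of -2.76 ± 0.32 SD was the lowest of the 77 (limma adjusted p = 4.8e-07). Rpl3, which also reaches towards that centre, differed by -2.59 SD, and Rpl4, which lines the tunnel through which the new chain leaves, by -2.38 SD. Rpl5 and Rpl11 enter the ribosome together and, when unassembled, can bind MDM2, the ubiquitin ligase of p53. Rpl5 differed by -2.43 ± 0.33 SD with 4 aged libraries between -2.29 and -1.20. Rpl11 scored -1.46, -0.02, 0.68 and 0.44 in the aged ovaries and 1.28, 0.72, 1.29 and 1.34 in the young ovaries, which do not overlap either. Its difference of -1.25 ± 0.55 SD passed narrowly (limma adjusted p = 0.0451) and missed the threshold with library medians set equal (-0.82 SD, adjusted p = 0.164), with a variance of its own for each group (adjusted p = 0.177), with a block for the replicate number (adjusted p = 0.0527) and without any single young library other than library 2 or without aged library 1 or 2.

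The 5 genes that were higher in aged ovaries were Rpl14, Rpl13a, Rps19bp1, Rpl28 and Rpl36. Rpl14 scored 0.88, 2.63, 1.32 and 1.42 in the aged ovaries and -0.82, -0.76, -0.43 and -0.31 in the young ovaries, a difference of 2.14 ± 0.43 SD (limma adjusted p = 0.000199). Rpl13a, which in human cells also leaves the ribosome to hold back translation of inflammatory mRNAs after interferon gamma, scored 0.90, 2.79, 0.60 and 1.75 in the aged ovaries and between -0.56 and -0.33 in the young ovaries, a difference of 1.96 SD. Aged library 2 was the highest of the aged libraries in both genes, and in neither did the groups overlap. Rps19bp1 differed by 1.54 SD. Rpl28 and Rpl36 differed by 1.30 and 1.27 SD, and both missed the threshold without young library 2 or aged library 2 (Rpl36 also without aged library 1, Rpl28 also without aged library 3) and with a variance of its own for each group (adjusted p = 0.126 for Rpl28 and 0.178 for Rpl36). Setting the library medians equal takes out medians that averaged -0.448 SD in the aged and -0.02 SD in the young libraries. After it 45 of the 77 were lower and 7 higher, beside 35.8% and 37.2% of all genes. With that variance setting, 41 of the 77 were lower and 3 higher, beside 32.2% and 29.7% of all genes.

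**Figure D2:**
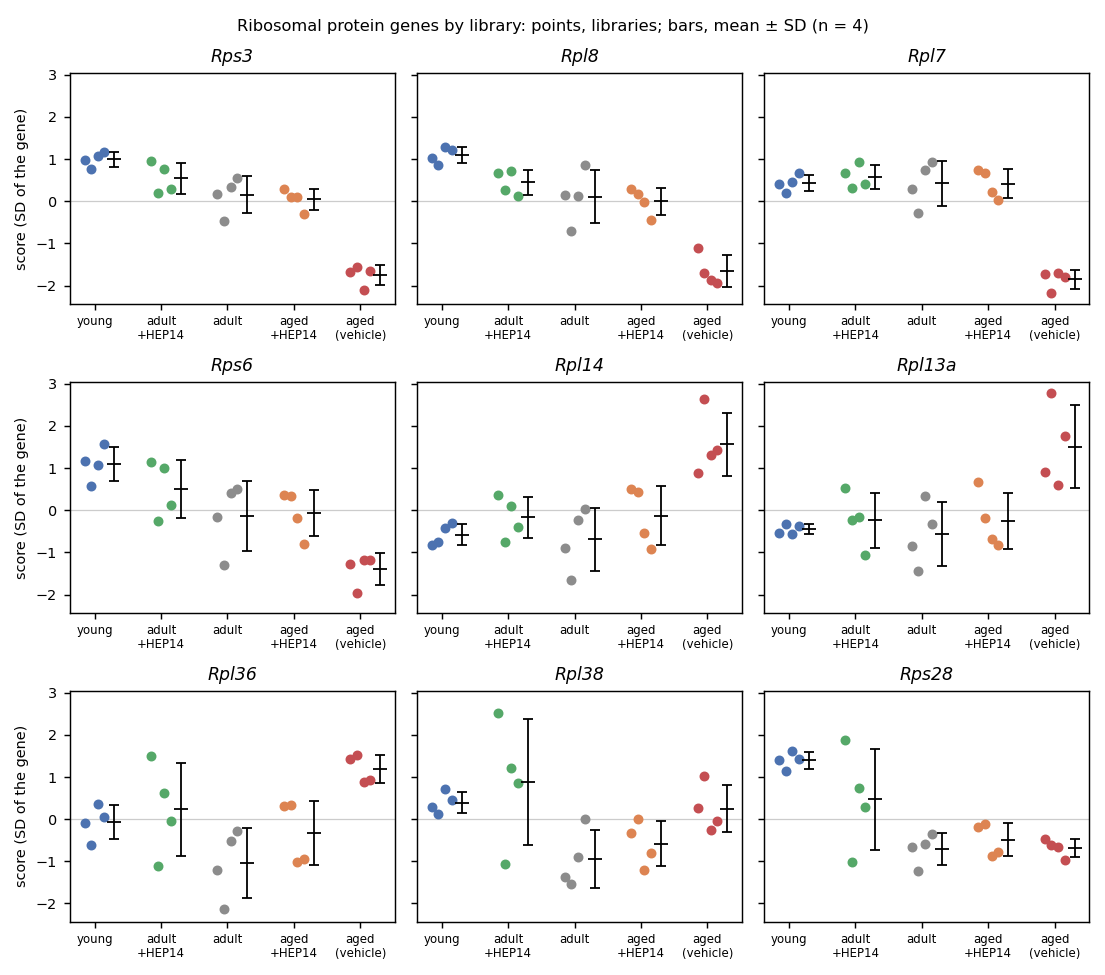
Scores of 9 ribosomal protein genes by library, in SDs of the gene, with points for the 4 libraries of each group and bars for the group mean ± SD. Rps3, Rpl8, Rpl7 and Rps6 are lowest in the aged group, Rpl14, Rpl13a and Rpl36 are highest there, Rpl38 spreads widely in adult ovaries with HEP14 and Rps28 is high in young ovaries.

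HEP14 in aged ovaries was accompanied by higher scores of many ribosomal protein genes than in aged ovaries with vehicle. By limma 38 of the 77 were higher (49.4%), against 33.2% of all genes, and 8 were lower (10.4%), against 29.3% of all genes, of which 62.5% passed in either direction. The median difference was 1.06 SD, beside 0.31 SD over all genes, and 36 members had 4 HEP14 libraries above the 4 vehicle libraries and 5 below, against 25.8% and 20.5% of all genes. Among small subunit genes 21 of 31 were higher and 1 was lower, and among large subunit genes 17 of 46 were higher and 7 lower. This comparison shares the 4 aged libraries with the one above, so their values are side by side and not independent.

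Rpl7 had the largest rise. It scored 0.75, 0.67, 0.21 and 0.04 in the aged ovaries with HEP14 and -1.73, -2.18, -1.71 and -1.79 in the aged ovaries, a difference of 2.27 ± 0.30 SD (limma adjusted p = 4.32e-06). Rps13 scored between 0.17 and 0.86 in the aged ovaries with HEP14 and -2.09, -2.46, -1.04 and -1.32 in the aged ovaries, a difference of 2.17 SD. Neither gene's groups overlapped. Rpl23a, at the mouth of the exit tunnel where the signal recognition particle docks, rose by 2.14 SD, Rpl5 and Rpl4 by 2.10 SD each, and Rpl3 by 1.94 SD. Rps12-ps3, whose reads may belong to Rps12, differed by 2.22 SD, and Rps12 itself by 1.73 SD. Rps3 scored 0.30, 0.11, 0.09 and -0.30 in the aged ovaries with HEP14, above all 4 aged ovaries given above, and rose by 1.80 ± 0.29 SD (limma adjusted p = 2.48e-05).

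Some well known members passed with less margin. Rps6 scored 0.37, 0.33, -0.19 and -0.79 in the aged ovaries with HEP14, all above the aged ovaries, and rose by 1.33 ± 0.42 SD (limma adjusted p = 0.00954). It missed the threshold with library medians set equal (0.96 SD, adjusted p = 0.052) and with a variance of its own for each group (adjusted p = 0.122). Rps19 and Rpl10a differed by 1.27 and 1.36 SD and lost their calls under the same settings, Rps19 also without aged library 1 or 4 or HEP14 library 1 or 2 and Rpl10a also without HEP14 library 1. With library medians set equal, 32 of the 77 were higher and 11 lower, beside 26.3% and 33.8% of all genes. With a variance of its own for each group, 24 of the 77 were higher and 4 lower, beside 22.2% and 24.1% of all genes.

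The 8 genes that were lower with HEP14 in aged ovaries were Rps19bp1 (-1.95 SD), Rpl13a (-1.76 SD), Rpl21 (-1.75 SD), Rpl14 (-1.69 SD), Rpl36 (-1.53 SD), Rpl24 and Rpl28 (-1.51 SD each) and Rpl35 (-1.26 SD). Rpl14 scored 0.50, 0.43, -0.53 and -0.92 in the aged ovaries with HEP14, all below the lowest aged value of 0.88. Rpl24, which joins the large subunit late and bridges it to the small one, scored 0.08, 0.04, -0.51 and -0.85 in the aged ovaries with HEP14 and 0.56, 1.98, 1.5 and 0.77 in the aged ovaries, and did not overlap. Rpl28 scored 0.50 and 0.58 in HEP14 libraries 1 and 2 and 0.02 in aged library 1, so its groups overlapped. Rpl28 and Rpl35 missed the threshold without aged library 2 or without HEP14 library 3 or 4 and with the 2 groups alone (Rpl35 also with aged library 3 left out), and Rpl21, Rpl36, Rpl28 and Rpl35 missed it with a variance of its own for each group.

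The members sort by their calls in these comparisons, which share the aged libraries. Lower in aged than in young ovaries and higher with HEP14 than with vehicle in aged ovaries were 35 genes. Lower in aged than in young ovaries and not called with HEP14 were 18 genes, among them Rpl11, Rpl18, Rpl22, Rpl37, Rpl39, Rpl41, Rps21, Rps27, Rps28 and Rps29. All 5 genes that were higher in aged than in young ovaries were lower with HEP14, and Rpl21, Rpl24 and Rpl35 were lower with HEP14 alone. Rpl6, Rpl10 and Rpl22l1 were higher with HEP14 alone, and 13 genes passed in neither comparison. A call in a single comparison does not show that the comparisons differ. Of all genes 74.3% passed in aged against young ovaries and 62.5% with HEP14 in aged ovaries. How many of all genes share each joint pattern was not counted. These joint counts therefore do not show a pattern particular to the ribosomal protein genes.

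Adult ovaries had lower scores than young ovaries for a set of ribosomal protein genes, of which 8 were among the 26 with the shortest coding sequences. By limma 13 of the 77 were lower (16.9%), against 7.17% of all genes, and 0 were higher, against 2.75% of all genes, of which 9.92% passed in either direction. Without adjustment 37 of the 77 had a p under 0.05, beside 4873 of all 17651 genes. The median difference was -0.91 SD, beside -0.01 SD over all genes, and in 31 members the 4 adult libraries lay wholly below the 4 young ones, against 16.5% of all genes. The 13 genes were Rps28, Rpl11, Rpl37, Rpl18, Rps21, Rpl35, Rpl35a, Rpl36a, Rpl24, Rpl7a, Rpl41, Rps29 and Rps14.

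Rps28 scored -0.65, -1.24, -0.59 and -0.36 in the adult ovaries and 1.40, 1.14, 1.61 and 1.44 in the young ovaries, a difference of -2.11 ± 0.42 SD (limma adjusted p = 0.00618). Rpl18 scored -0.28, -1.56, -0.25 and 0.33 in the adult ovaries and between 1.18 and 1.64 in the young ovaries, a difference of -1.94 SD. In neither gene did the groups overlap. Rpl37 and Rpl11 differed by -2.01 and -2.03 SD, and missed the threshold without young library 1 or 3 and without adult library 2, in which the mean of the 77 was -1.20, beside -0.36, 0.22 and 0.47 in the other adult libraries. The count of 13 moved with single libraries. It was 3 without adult library 2 (beside 2.69% of all genes), 6 without adult library 1 (beside 3.99%), 4 without young library 1 (beside 2.64%), 4 without young library 3 (beside 3.76%) and 8 without young library 4 (beside 6.75%), so that without adult library 2 or young library 3 the share of the 77 was near that of all genes. It was 26 with the 2 groups alone (beside 13.4% of all genes) and 35 with a variance of its own for each group (beside 17.9%). In the same comparison 9 of 11 luteal and theca markers were higher in adult than in young ovaries, and 6 of 11 stroma and 4 of 7 oviduct markers were lower. The oviduct means were 2.13, 0.96, 1.45 and -0.38 in the young ovaries and between -0.63 and -0.47 in the adult ovaries. The part of these markers in the ribosomal protein differences was not tested.

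Between aged and adult ovaries the difference was of both signs. By limma 36 of the 77 were lower in aged ovaries (46.8%), against 35.7% of all genes, and 12 were higher (15.6%), against 31.1% of all genes (66.8% in either direction), with a median of -1.05 SD beside -0.26 SD. The lowest were Rpl7 (-2.28 SD), Rpl3 (-2.22 SD), Rps3a1 (-2.2 SD) and Rpl4 (-2.18 SD). For Rpl7 the adult group was near the young one, at 0.28, -0.27, 0.75 and 0.94 in the adult ovaries and 0.40, 0.19, 0.46 and 0.67 in the young ovaries. The highest were Rps19bp1 (2.47 SD), Rpl14 (2.25 SD), Rpl36 (2.23 SD) and Rpl28 (2.12 SD), followed by Rpl13a, Rpl21, Rpl24 and Rps18 at 1.81 to 2.08 SD. With a variance of its own for each group, 22 were lower and 6 higher, beside 25.0% and 26.2% of all genes, and Rpl21 and Rps18 no longer passed.

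Aged ovaries with HEP14 were also set against young ovaries. By limma 10 of the 77 were lower (13.0%), near the 10.5% of all genes, and 0 were higher, against 5.38% of all genes. In either direction 15.9% of all genes passed. An unadjusted p under 0.05 was found in 31 of the 77 and in 5614 of all 17651 genes. The median was -0.78 SD, beside -0.01 SD over all genes. In 29 members the HEP14 libraries all lay below the young ones and in 2 above, against 16.8% and 16.5% of all genes. The 10 genes were Rpl9-ps6 (-2.03 SD), Rps28 (-1.89 SD), Rpl37 (-1.80 SD), Rpl18 (-1.78 SD), Rps21, Rpl41, Rps14, Rpl24, Rpl8 and Rps3 (-0.95 SD). Rps28 scored -0.19, -0.12, -0.88 and -0.77 in the aged ovaries with HEP14, all below the lowest young value of 1.14. Rps3 missed the threshold with library medians set equal (adjusted p = 0.0526) and without young library 1, 3 or 4 or aged HEP14 library 2 or 4. Rpl37 missed it without young library 1 (limma adjusted p = 0.0512) or 3 (0.0637) or without aged HEP14 library 4 (0.062). The count of 10 became 5 without aged HEP14 library 4 (beside 6.08% of all genes), 31 with the 2 groups alone (beside 17.1%) and 30 with a variance of its own for each group (beside 21%).

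In adult ovaries HEP14 gave no call on any ribosomal protein gene. By limma 0 of the 77 passed in either direction, against 0.00567% of all genes, which is 1 gene, while 11 of the 77 and 345 of all genes had an unadjusted p under 0.05. The difference was positive in 71 of the 77, with a median of 0.57 SD beside -0.00 SD over all genes, and in 0 members did the libraries of the groups lie apart, against 0.652% of all genes with the HEP14 libraries all below and 0.776% all above. The 11 genes were Rpl36, Rpl36a, Rpl37, Rpl37a, Rpl38, Rpl39, Rpl41, Rps21, Rps27, Rps28 and Rps29, all among the 26 with the shortest coding sequences. Rpl38, which in the mouse embryo helps to translate Hox mRNAs, scored 2.53, -1.07, 1.22 and 0.85 in the adult ovaries with HEP14 and -1.37, -1.53, -0.89 and 0.01 in the adult ovaries, so that HEP14 library 2 lay among the adult libraries. Its difference was 1.83 ± 0.54 SD with an unadjusted limma p of 0.0029 and an adjusted p of 1.

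The HEP14 difference itself differed between aged and adult ovaries in 27 members (limma, interaction). Of these 17 had a higher and 10 a lower difference in aged ovaries, which is 22.1% and 13.0% of the 77. The shares of all genes were 24.9% and 22.4% (47.3% in either direction), so neither share of the 77 is above that of all genes. The higher ones included Rps12-ps3 (2.41 SD), Rpl23a (2.16 SD), Rpl7 (2.12 SD), Rpl5 (1.88 SD) and Rps3 (1.41 SD). The lower ones were Rpl36 (-2.80 SD), Rpl38 (-2.67 SD), Rpl21 (-2.55 SD), Rps19bp1 (-2.29 SD), Rpl35, Rpl14, Rps18, Rpl28, Rpl13a and Rpl35a (-1.99 SD). For Rpl38 the HEP14 difference was -0.84 SD in aged ovaries and 1.83 SD in adult ovaries, neither of which passed by itself. The counts of 17 and 10 were 9 and 13 with library medians set equal (beside 18.0% and 26.3% of all genes), and the count of 17 was 30 without adult library 2, and Rps3 was at 1.05 SD with medians set equal (adjusted p = 0.0529).

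**Figure D3:**
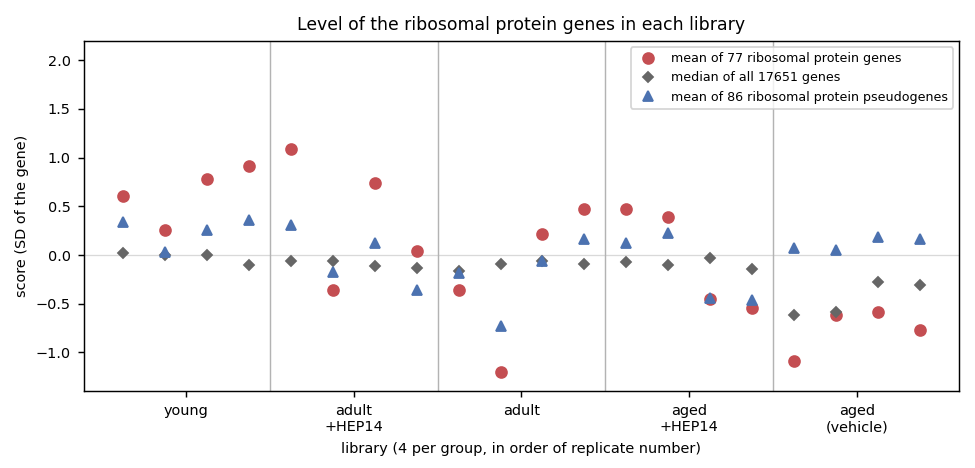
Mean score of the 77 ribosomal protein genes (circles), mean of 86 ribosomal protein pseudogenes (triangles) and median of all 17651 genes (diamonds) in each of the 20 libraries, in SDs of the gene, with libraries in order of replicate number within each group. The ribosomal protein mean is below -0.5 in all 4 aged libraries and reaches -1.20 in adult library 2, while the pseudogene mean is between 0.05 and 0.19 in the aged libraries.

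The members moved together from library to library within groups as well. The mean of the 77 was 0.61, 0.26, 0.78 and 0.91 in the young ovaries, 1.09, -0.36, 0.74 and 0.04 in the adult ovaries with HEP14, -0.36, -1.20, 0.22 and 0.47 in the adult ovaries, 0.47, 0.39, -0.45 and -0.54 in the aged ovaries with HEP14 and -1.09, -0.62, -0.58 and -0.77 in the aged ovaries. The aged libraries were below all young ones, and the 3 other groups spread widely. Over 2926 pairs of members the median Pearson r of the deviations from the group mean was 0.624, beside -0.0154 for pairs of a member and any other gene. The pairs share the same 20 libraries with their depth and RNA quality, and members share sequence with pseudogenes, so this is a description.

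Differences of the members were correlated with the length of their coding sequence in several comparisons, though not always in even steps. Over the 73 members without a pseudogene symbol, Spearman's rho between longest coding length and the difference was -0.67 for HEP14 in adult ovaries, 0.46 for adult minus young, -0.43 for aged minus adult and 0.39 for HEP14 in aged ovaries, and -0.27 for aged minus young. Over all 13748 protein-coding genes it was between -0.19 and 0.06 in these comparisons. With merged exon length rho was -0.21 for HEP14 in adult ovaries, 0.27 for adult minus young and 0.32 for HEP14 in aged ovaries. The counts and medians by length that follow are over all 77 members, pseudogene symbols included. Of the 26 longest members (588 to 1257 bases) 19 were higher with HEP14 in aged ovaries, with a median difference of 1.67 SD. Of the 25 in the middle (405 to 582 bases) 10 were, with a median of 0.46 SD. Of the 26 shortest (138 to 399 bases) 9 were, with a median of 0.77 SD. The middle had the lowest median and the shortest had the fewest calls. Of all genes 33.2% were higher, and the middle and shortest members lie nearer to that share than the longest. In adult minus young the median was -0.48 SD for the longest, -0.93 SD for the middle and -1.30 SD for the shortest. The genes share the libraries, and how far RNA length and library preparation move with these differences was not tested.

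**Figure D4:**
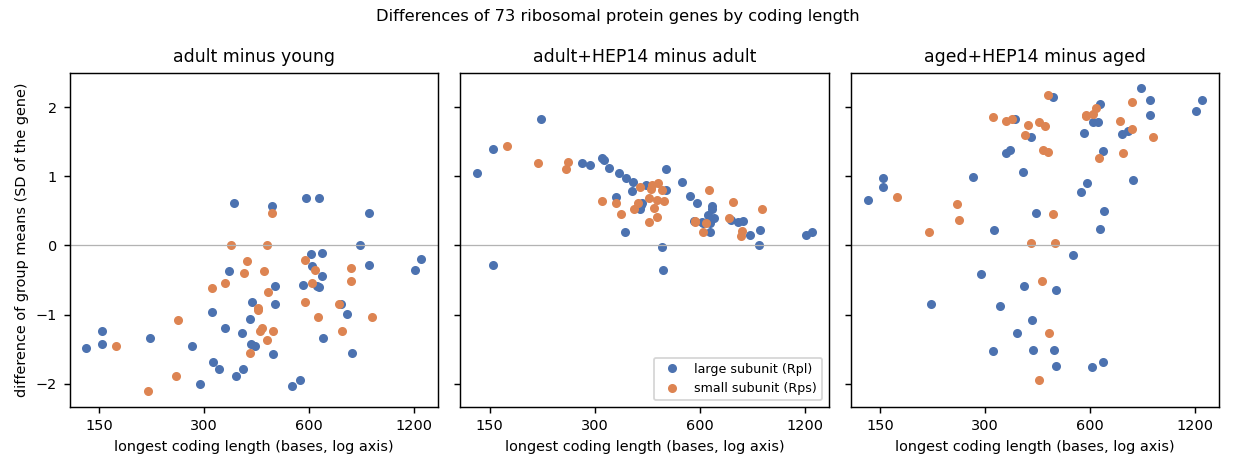
Difference of group means in SDs of the gene (vertical axis) against the longest coding length in bases (horizontal log axis) for 73 ribosomal protein genes, large subunit in blue and small subunit in orange, in 3 comparisons. Short genes are lowest in adult minus young and highest in HEP14 minus control in adult ovaries. With HEP14 in aged ovaries 19 of the 26 longest, 10 of the 25 middle and 9 of the 26 shortest members passed as higher, beside 33.2% of all genes. These counts are over all 77 members and include the 4 under pseudogene symbols, which are not shown.

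Start sites and snoRNAs within introns gave further descriptions. Of the 12 members with a C and T run over the first base, 7 were lower and 2 higher in aged than in young ovaries, with a median of -1.77 SD, and of the 43 without one 32 were lower and 2 higher, with a median of -2.07 SD. With HEP14 in aged ovaries the counts were 5 higher and 3 lower of 12, and 22 higher and 3 lower of 43. The 3 lower genes with the run were Rpl14, Rpl28 and Rpl35, whose windows stand above. A small nucleolar RNA gene lies within 25 of the 77 members, and of these 20 were lower in aged than in young ovaries and 17 were higher with HEP14 in aged ovaries, beside 33 and 21 of the other 52. Of all genes 41.3% were lower and 33.0% higher in aged than in young ovaries. With HEP14 in aged ovaries 33.2% of all genes were higher and 29.3% lower. The HEP14 counts of the 12 members with a run, and the 40.4% higher among the 52, lie near these shares. Neither feature was tested.

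Paralogues of the same protein were compared side by side. Rpl22 and Rpl22l1 encode alternative forms of a large subunit protein. Rpl22 differed by -2.27 SD in aged against young ovaries and by 1.06 SD with HEP14 in aged ovaries (limma adjusted p = 0.0559), and Rpl22l1 by -0.85 SD (adjusted p = 0.16) and 1.83 SD (adjusted p = 0.00648). These HEP14 calls turned with the setting: Rpl22 passed with the 2 groups alone (adjusted p = 0.0287), with a block for the replicate number (0.0367), among genes without a tied lowest value (0.0487) and without HEP14 library 4 (0.0328), and Rpl22l1 did not pass with a variance of its own for each group (0.124). The difference between the paralogues was not tested. Rps27l, a p53-induced form of Rps27, differed by -2.31 and 1.85 SD in these comparisons and Rps27 by -1.5 and 0.37 SD. Rpl10, which helps the subunits join, differed by -1.06 SD (adjusted p = 0.0503) and 2.05 SD. Its relative Rpl10l, known from the testis, was at its tied lowest value of -0.86 in all 4 aged libraries and in 3 of the 4 aged libraries with HEP14, so its differences rest on the few libraries above that value. Rpl7l1 followed Rpl7, at -2.64 and 1.61 SD. Rpl39l, at its lowest value of -1.47 in 3 of 4 aged libraries, differed by -2.30 and 0.97 SD, and Rpl39 by -1.75 and 0.85 SD. Rpl39l passed with HEP14 without aged library 3 (adjusted p = 0.0139) or HEP14 library 3 (0.0218), and Rpl39 did not pass in aged against young ovaries with a variance of its own for each group (0.0649).

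Reads of ribosomal protein genes can also be divided with processed pseudogenes, and 86 of the 290 annotated ribosomal protein pseudogenes were in the table. Of these, 26 were lower and 24 higher in aged than in young ovaries, beside 41.3% and 33.0% of all genes. With HEP14 in aged ovaries 20 were higher and 31 lower, beside 33.2% and 29.3% of all genes. For 74 pseudogenes paired by symbol with 35 source genes, the median difference in aged against young ovaries was 0.10 SD for the pseudogenes and -1.76 SD for the source genes. These medians are over the 74 pairs, so a source gene enters as often as it has pseudogenes. In 46 of the 74 pairs both differences had the same sign. The counting rules for reads that fit more than 1 place are not stated in the sources read.

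Other genes of the ribosome and of translation were counted in the same comparisons. The shares of all genes beside them are 41.3% lower and 33.0% higher in aged against young ovaries. With HEP14 in aged ovaries they are 29.3% lower and 33.2% higher. Of 7 genes of the ribosome outside the symbol rule, such as Rpsa, Rplp0, Rplp2 and Rack1, 7 were lower in aged than in young ovaries and 6 higher with HEP14 in aged ovaries. Rplp0, of the stalk that recruits elongation factors, averaged 0.05 ± 0.29 in the aged ovaries with HEP14, -1.81 ± 0.17 in the aged ovaries and 0.75 ± 0.15 in the young ovaries (SD, n = 4 each). Rplp2 differed by 1.90 SD with HEP14. Of 32 initiation factors 25 were lower and 5 higher in aged than in young ovaries, and 22 were higher and 5 lower with HEP14 in aged ovaries. Eif4g2 and Eif1ax rose there by 2.2 and 2.17 SD.

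Of 12 elongation and termination factors, 8 were lower and 2 higher in aged than in young ovaries and 7 were higher and 1 lower with HEP14 in aged ovaries. Eef1a1, which brings aminoacyl-tRNA to the ribosome, averaged 0.24 ± 0.23 in the aged ovaries with HEP14, -1.89 ± 0.34 in the aged ovaries and 0.53 ± 0.12 in the young ovaries (SD, n = 4 each). Hbs1l, which helps to rescue stalled ribosomes, went the other way, with -2.49 SD for HEP14 in aged ovaries and 2.40 SD for aged against young ovaries. Of 20 factors of the nascent chain and ribosome quality control, 14 were lower and 3 higher in aged than in young ovaries, and 13 were higher and 2 lower with HEP14. They include Sec61a1, the core of the protein-conducting channel of the endoplasmic reticulum, at 2.27 SD with HEP14, and Serbp1, which binds idle ribosomes, at 1.91 SD.

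Genes of RNA polymerase I, which makes ribosomal RNA, were mostly higher in aged ovaries, and those that assemble ribosomes divided in both directions. Of 13 genes of RNA polymerase I and its factors, 10 were higher and 2 lower in aged than in young ovaries, and 12 were lower and 1 higher with HEP14 in aged ovaries. Polr1b, the second largest subunit of the polymerase, averaged -0.59 ± 0.33 in the aged ovaries with HEP14, 1.82 ± 0.36 in the aged ovaries and -0.13 ± 0.19 in the young ovaries (SD, n = 4 each), and Taf1c, of its promoter factor, differed by -2.24 SD with HEP14. Of 66 assembly factors 27 were higher and 30 lower in aged than in young ovaries, and 16 were higher and 29 lower with HEP14, with Bms1 and Ftsj3 at -2.55 and -2.57 SD. In aged against young ovaries 41.3% of all genes were lower and 33.0% higher. With HEP14 in aged ovaries 29.3% were lower and 33.2% higher, so the counts of assembly factors in aged against young ovaries lie near those of all genes. The lists were not compared with these shares by a test.

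The genes of mTORC1 and translational control, a list wider than the control of TOP mRNAs, went in both directions, as all genes did. Of these 30 genes 13 were lower and 11 higher in aged than in young ovaries, beside 41.3% and 33.0% of all genes. With HEP14 in aged ovaries 14 were higher and 10 lower, beside 33.2% and 29.3% of all genes. Rraga, a GTPase that brings mTORC1 to the lysosome, rose by 2.07 SD with HEP14, and Eif2ak4, the kinase that senses uncharged tRNA, fell by 2.38 SD. Larp1, the repressor of TOP mRNAs, differed by -2.38 SD with HEP14 and 1.82 SD in aged against young ovaries. Of 10 genes of the S6 kinase family, 5 were higher and 3 lower in aged than in young ovaries, and 1 was higher and 4 lower with HEP14. Rps6kb1 and Rps6kb2, which encode the kinases of RPS6, differed by -1.98 and -2.19 SD with HEP14.

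**Figure D5:**
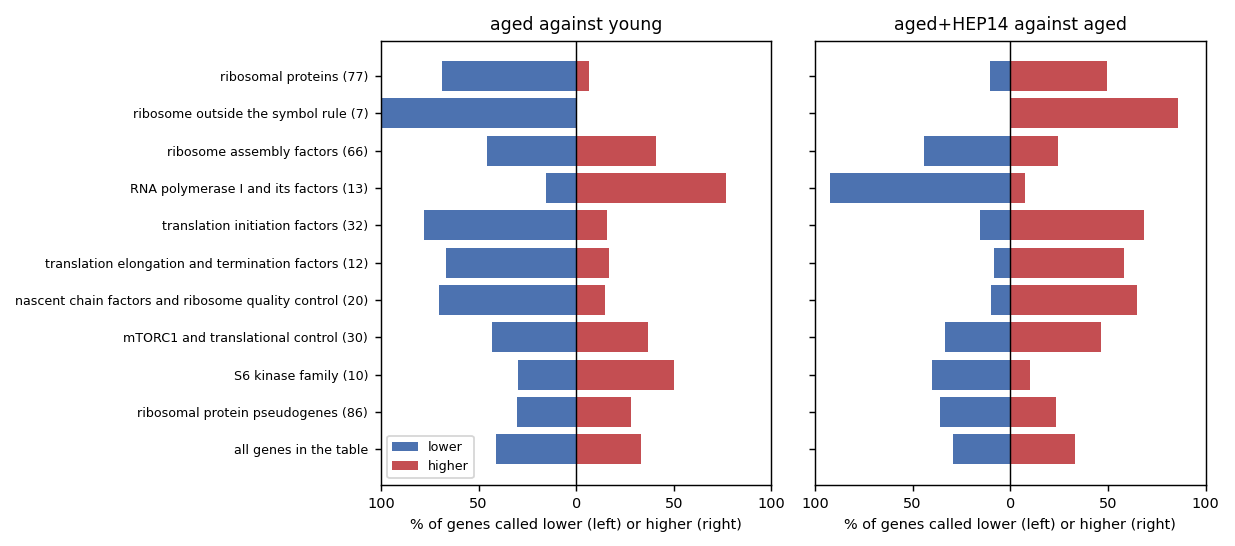
Percent of genes called lower (blue, to the left) and higher (red, to the right) in 10 gene lists, with the number of genes in the table in brackets, and in all genes, for aged against young ovaries (left panel) and aged ovaries with HEP14 against aged ovaries (right panel). Ribosomal proteins and the initiation, elongation and nascent chain lists are mostly lower in aged ovaries, and with HEP14 38 of 77 ribosomal protein genes are higher, while 12 of 13 RNA polymerase I genes are lower with HEP14.

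Markers of several cell types also differed in these comparisons, in both directions, and are read beside the shares of all genes given above. Of 20 oocyte markers, 20 were lower in aged than in young ovaries and 13 higher with HEP14 in aged ovaries, and their mean score per library was -0.70 to 0.42 in the aged ovaries with HEP14, -1.86 to -0.71 in the aged ovaries and 0.79 to 1.45 in the young ovaries. Of 12 granulosa cell markers, 7 were lower in aged than in young ovaries and 9 higher with HEP14, and of 11 stroma markers 10 were lower in aged than in young ovaries and 4 higher and 1 lower with HEP14. Of 11 luteal and theca markers, 8 were higher in aged than in young ovaries and 3 higher with HEP14. Smooth muscle and oviduct markers were lower in aged than in young ovaries in 5 of 7 each (1 oviduct marker was higher), and 0 of either passed with HEP14 in aged ovaries. The oviduct means were uneven within groups, at 2.13, 0.96, 1.45 and -0.38 in the young ovaries and 1.38 in aged HEP14 library 3. How much oviduct each library held was not tested. Of 14 T and NK cell markers, 13 were higher in aged than in young ovaries and 11 lower with HEP14, with library means of -0.22 to 0.06 in the aged ovaries with HEP14, 0.58 to 2.32 in the aged ovaries and -1.0 to -0.77 in the young ovaries. Of 12 B and plasma cell markers, 10 were higher in aged than in young ovaries and 8 lower with HEP14. Of 8 macrophage markers, 4 were higher and 2 lower in aged than in young ovaries, and 1 was higher and 1 lower with HEP14. In whole ovary, fewer cells of a type and less RNA per cell cannot be told apart, and the part of these markers in the ribosomal protein differences was not tested.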

How the data were processed

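RNA was sequenced from 20 mouse ovary libraries. The submitters' processing notes name DESeq2 1.20.0, featureCounts 1.5.0-p3 and HISAT2 2.0.5 without saying what each did; the genome build, annotation, strand setting and scaling before standardisation are not stated in the sources read. The deposited values are a score per gene and library, standardised by the authors to a mean of 0 and an SD of 1 per gene over the 20 libraries, so the depth of each library is unknown and no fold change can be had.

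Gene IDs were matched to GENCODE M21 (GRCm38): 17643 matched and 8 did not. Each gene was fitted with limma 3.58.1 (R 4.3.3) with a mean per group over all 20 libraries, which share 1 estimate of the spread, and p-values were Benjamini-Hochberg adjusted over 17651 genes within each comparison at 0.05. The fit was tested on simulated data, in which a limit on false calls was set only for groups of equal spread. The groups here were unequal: in the setting with 1 variance per group the weights, lower for more spread, were 0.25 for aged and 2.37 for young. The simulation therefore does not vouch for the main fit at these spreads. Alternatives were library medians set equal, the 2 groups alone, 1 variance per group, robust moderation, the genes without a tied lowest value, a replicate block and each library left out. The members, the lists and the comparisons were chosen with earlier results of these data known. Genes named were a fixed set with known roles or paralogues, the 4 members with the largest difference in each direction among those that passed without overlap, those passing in the minority direction, and the 2 genes of each translation list with the smallest p for HEP14 in aged ovaries. Rps14, Rps9, Rpl4, Rps12 and Larp1 were in places named outside that rule, after their values were seen. A few genes that enter the fit and the counts are not reported here.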

Additional observations from a re-analysis of the deposited data

Results flagged for a closer look

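In 10 of 210 groups of 4 libraries, over the members named by rule, the highest or lowest library stood apart from the other 3 by Dixon's criterion, which chance gives in about 1 of 20 groups. These were Rpl10l at 0.08 in aged HEP14 library 1 and Rps27l at -0.28 in aged HEP14 library 3. Young library 2 stood apart 4 times, with Rpl11 at 0.72, Rpl18 at 1.18, Rpl28 at -0.40 and Rps18 at -0.68. In adult library 2 it was Rpl24 at -1.26. In the aged libraries they were Rpl39l at 0.32 in library 3, Rps4x at -0.89 in library 1 and Rps6 at -1.96 in library 2.

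The HEP14 difference in aged ovaries differed from that in adult ovaries, by the limma test of the difference itself, in 17 members with a higher and 10 with a lower value in aged ovaries. These are 22.1% and 13.0% of the 77, beside 24.9% and 22.4% of all genes, so neither share is above that of all genes. Among the genes named by rule the difference of differences was positive for Rps3 (1.41 SD), Rpl5 (1.88 SD), Rpl3 (1.79 SD), Rpl10 (1.86 SD), Rpl7 (2.12 SD), Rpl7l1 (1.25 SD) and Rps4x (1.54 SD). With library medians set equal Rps3 (adjusted p = 0.0529), Rps4x (0.0507), Rpl10 (0.0861) and Rpl7l1 (0.183) missed the threshold, as did Rpl10 (0.103) and Rpl7l1 (0.0744) with 1 variance per group and Rpl7l1 with the replicate block (0.0591), and both of these missed it without several single libraries. It was negative for Rpl36 (-2.80 SD), Rpl38 (-2.67 SD), Rpl21 (-2.55 SD), Rps19bp1 (-2.29 SD), Rpl35 (-2.24 SD), Rpl14 (-2.21 SD), Rps18 (-2.15 SD) and Rpl28 (-2.12 SD). With 1 variance per group Rpl21 (0.0513), Rpl35 (0.07), Rps18 (0.116) and Rpl28 (0.0632) missed it, and without adult library 2 so did Rps18 (0.0931) and Rpl28 (0.0579), which also missed it without several other libraries.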

How the results depend on the processing

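Of 1723 alternative values for 106 pairs of a named gene and a comparison, 1545 kept direction and side of the threshold, 156 lost the call, 11 gained one and 11 changed sign. The sign changed, always without a call, for Rpl38 in aged against young (0.29 with library medians set equal, 0.03 without aged library 3; -0.4 to 0.03 over single libraries left out), and for HEP14 in aged ovaries in Rpl10l (-0.13 with medians equal, -0.00 to 0.31 over single libraries left out, lowest without aged HEP14 library 1), Rpl36a (-0.15 with medians equal, -0.06 without aged library 1 and up to 0.46 without others, -0.26 without aged libraries 1 and 2) and Rpl11 (0.11, 0.03, 0.12 and 0.08 without aged library 3 or 4 or aged HEP14 library 3 or 4, and down to -0.6 without aged library 1).

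Counts moved by over 1.5 times as follows. With medians equal, 9 members had a higher HEP14 difference in aged than in adult ovaries. With the 2 groups alone, 26 were lower in adult against young and 31 lower and 1 higher in aged HEP14 against young. With 1 variance per group the counts were 35 lower in adult against young, 30 lower in aged HEP14 against young, 3 higher in aged against young, 22 lower and 6 higher in aged against adult, 4 lower and 24 higher for HEP14 in aged ovaries, and 11 higher and 5 lower for the difference of HEP14 differences. Without adult and adult HEP14 library 2, an alternative chosen after seeing the data like that without aged libraries 1 and 2, 4 were lower in adult against young.

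Leaving out each library in turn gave 49 to 54 lower and 3 to 6 higher in aged against young (3 without young or aged library 2), 33 to 40 higher and 6 to 13 lower for HEP14 in aged ovaries (13 without aged library 1), 29 to 42 lower and 8 to 15 higher in aged against adult, 3 to 15 lower in adult against young, 5 to 10 lower in aged HEP14 against young, and 12 to 30 higher and 7 to 14 lower for the difference of HEP14 differences. The replicate block gave 52 lower and 5 higher in aged against young, 8 lower and 39 higher for HEP14 in aged ovaries, and 10 lower in adult against young. Deviations of libraries with the same number had an r of -0.19 to 0.16, within the -0.32 to 0.41 of libraries with other numbers. With 4 libraries per group these values can neither show nor exclude a pairing by number.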
